A study of Homo sapiens with 3 samples.

Results

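The genes described here are 10 genes of TGF-beta signalling, chosen by name from the 58735 annotated genes of the count and FPKM tables: the ligand genes TGFB1, TGFB2 and INHBA, the latency gene LTBP1, the receptor genes TGFBR1, TGFBR2 and TGFBR3, the signal transducer genes SMAD3 and SMAD7, and the target gene TGFBI. Each of the 10 names matched 1 gene. RNA was sequenced from 3 established human prostate cancer cell lines, PC3, DU145 and LNCAP, with 1 library per line. PC3, from a bone metastasis, and DU145, from a brain metastasis, stood for castration-resistant cancer in the series design, and LNCAP, from a lymph node metastasis, for androgen-dependent cancer. No agent was given to any line. All 3 were kept in medium with 10% serum, and the labels name several media without assigning them to lines, so line and medium cannot be told apart.

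TGF-beta is secreted as an inactive complex with its own propeptide, which latent TGF-beta binding proteins tether to the matrix until it is released. The free ligand binds the type II receptor, which phosphorylates the type I receptor, and the type I receptor then phosphorylates SMAD2 and SMAD3, which enter the nucleus with SMAD4. In prostate epithelium the pathway is known for restraining growth, and in advanced cancer for its links to invasion and bone metastasis.

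The libraries held 15319045 counts in PC3, 15878546 in DU145 and 15393103 in LNCAP, and mitochondrial genes took 4.35%, 5.60% and 7.97% of them. Levels are given as normalised CPM, the counts scaled to the TMM-adjusted library total. A ratio between lines is followed by its exact 95% counting interval, which covers counting error only. A gene was called where 2 lines differed 4-fold or more, on a log2 scale after adding 0.5 counts, and the interval excluded a ratio of 1. With 1 library per line no difference between lines has a replicate check, and fewer cells making an RNA cannot be told apart from less RNA per cell. The line markers followed the labels for the prostate antigen gene KLK3, at 0 counts in PC3, 0 in DU145 and 35507 in LNCAP, and for the catenin gene CTNNA1, at 2.16 CPM in PC3, 506 in DU145 and 362 in LNCAP. The keratin gene KRT5, listed as a DU145 marker, had no counts in DU145. The other listed DU145 markers, VIM and CDH1, were not particular to that line. VIM stood at 429 CPM in PC3, 503 CPM in DU145 and 3.45 CPM in LNCAP. CDH1 stood at 2.22 CPM in PC3, 145 CPM in DU145 and 786 CPM in LNCAP. Markers of immune cells summed to 0.72, 1.47 and 0.77 CPM over 5 genes in PC3, DU145 and LNCAP. Markers of stromal cells summed to 52.5, 10.2 and 35.95 CPM over 7 genes, mostly from COL1A1, with LUM at 0 in each line. Markers of endothelial cells summed to 39.1, 1.21 and 9.40 CPM over 4 genes, mostly from PECAM1 (20.1 CPM) and KDR (19.0 CPM) in PC3 and VWF (9.21 CPM) in LNCAP, with CDH5 at 0 in PC3. Their part in the results was not tested.

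The 10 genes fell into 4 patterns. TGFB1, TGFB2, TGFBR2 and SMAD3 were called higher in both PC3 and DU145 against LNCAP. INHBA and LTBP1 were called higher in PC3 against each of the other lines. TGFBI was called higher in DU145 and lower in PC3, each against LNCAP. The lower call rests on 1 PC3 count and 8 LNCAP counts, and was lost with 5 counts added. TGFBR1, TGFBR3 and SMAD7 were under 4-fold apart in every pair. The upstream sequence of 1 or 2 genes of each of the first 3 patterns is shown here, because they precede the start sites of genes that follow different patterns over the lines. The sequences are from RefSeq on GRCh38.p14. They lie within the 250 bases before the start site nearest to a principal GENCODE transcript, without any base of an annotated GENCODE exon. TGFB1 (chr19:41353923-41354168, minus strand) and SMAD3 (chr15:67065352-67065601, plus strand) stand for the genes high in both lines, INHBA (chr7:41703109-41703340, minus strand) for PC3 and TGFBI (chr5:136028738-136028894, plus strand) for DU145. Capitals mark GC boxes, the letters GGGCGG or CCGCCC. They are written in the direction of transcription.
TGFB1: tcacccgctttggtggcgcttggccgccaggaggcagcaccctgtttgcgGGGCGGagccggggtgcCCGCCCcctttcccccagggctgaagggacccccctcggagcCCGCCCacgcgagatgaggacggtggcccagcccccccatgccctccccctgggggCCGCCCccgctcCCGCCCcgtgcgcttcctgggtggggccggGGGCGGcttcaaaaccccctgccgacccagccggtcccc
SMAD3: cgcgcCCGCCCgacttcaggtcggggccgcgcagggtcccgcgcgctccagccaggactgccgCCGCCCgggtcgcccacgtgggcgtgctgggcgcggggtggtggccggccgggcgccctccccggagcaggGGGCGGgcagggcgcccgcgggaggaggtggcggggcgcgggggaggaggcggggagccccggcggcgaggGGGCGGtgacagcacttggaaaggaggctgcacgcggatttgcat
INHBA: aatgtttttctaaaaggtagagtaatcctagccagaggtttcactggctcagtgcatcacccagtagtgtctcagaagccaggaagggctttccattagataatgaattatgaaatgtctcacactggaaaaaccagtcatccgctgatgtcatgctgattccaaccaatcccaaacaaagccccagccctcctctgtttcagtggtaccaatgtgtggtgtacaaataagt
TGFBI: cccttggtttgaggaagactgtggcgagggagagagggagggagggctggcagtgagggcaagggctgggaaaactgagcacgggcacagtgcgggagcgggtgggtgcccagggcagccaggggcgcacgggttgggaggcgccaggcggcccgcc

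The 4 stretches differed in base composition. The sequence shown held 77.2% G and C for TGFB1, 80.8% for SMAD3 and 71.3% for TGFBI, against 44.0% for INHBA. It held 6 GC boxes in TGFB1, 4 in SMAD3 and none in INHBA or TGFBI. The stretches are 246, 250, 232 and 157 bases long for TGFB1, SMAD3, INHBA and TGFBI, and the whole 300-base window of TGFBI holds 4 GC boxes outside the bases shown. RefSeq windows were found for 10 of 10 genes, 26 windows in all, each of 300 bases from 250 before to 50 after a start site, and 5 motifs were searched on both strands. GC boxes were in the windows of 6 of the 10 genes, which were TGFB1, TGFBR1, TGFBR2, TGFBR3, SMAD3 and TGFBI, against 48.3% of 27305 genes with windows. The AP-1 motif, TGACTCA or TGAGTCA, was in a window of TGFBR2 and in one of SMAD3, against 6.05% of genes. The TATA box, TATAAA, was in windows of TGFB2, INHBA and SMAD7, against 14.0% of genes. The letters CAGACA, a SMAD half-site, were in windows of TGFB2, INHBA, LTBP1, TGFBR1 and SMAD3, against 19.9% of genes, and the SMAD palindrome GTCTAGAC was in none of the 26 windows, against 0.256% of genes. No motif contains another, and genes with several windows had more chances to hold one.

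**Figure D1:**
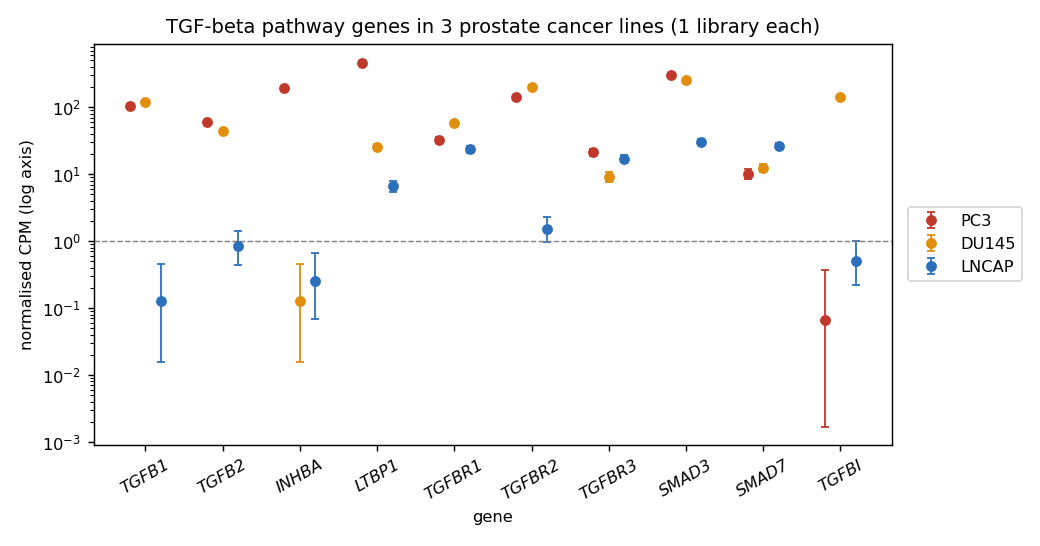
Normalised CPM on a log axis for the 10 genes in PC3, DU145 and LNCAP, 1 library each. Points are levels, bars are exact 95% Poisson intervals of the count, and the dashed line marks 1 CPM. LNCAP is under 1 CPM for TGFB1, TGFB2, INHBA and TGFBI, DU145 for INHBA and PC3 for TGFBI.

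The TGF-beta ligand genes were read at substantial levels in both castration-resistant lines and close to 0 in LNCAP. TGFB1 (ENSG00000105329, chromosome 19, 41301587 to 41353911, minus strand) encodes TGF-beta 1, the most widely made isoform. It stood at 105 CPM in PC3, 120 CPM in DU145 and 0.128 CPM in LNCAP, from 1607, 1874 and 2 counts. The 2 castration-resistant libraries were alike in size and LNCAP was at the edge of detection. TGFB1 was 822-fold higher in PC3 than in LNCAP (227 to 6792) and 935-fold higher in DU145 than in LNCAP (258 to 7725). Between PC3 and DU145 it was 1.14-fold lower in PC3 (1.06 to 1.22). A stretch of 215 of its 3238 exonic bases is shared with exons of HNRNPUL1 on the opposite strand, and the strand setting of the counts is not given in the sources used here. HNRNPUL1 had 5112 counts in PC3, 7947 in DU145 and 1940 in LNCAP, so the LNCAP count of 2 for TGFB1 stood beside a well detected overlapping gene.

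TGFB2 (chromosome 1, 218346235 to 218444619, plus strand) encodes TGF-beta 2, the isoform that needs betaglycan for efficient binding. It stood at 61.0 CPM in PC3, 44.4 CPM in DU145 and 0.832 CPM in LNCAP, from 933, 696 and 13 counts. TGFB2, like TGFB1, was above LNCAP in both lines. It was 73.4-fold higher in PC3 than in LNCAP (42.7 to 138) and 53.4-fold higher in DU145 than in LNCAP (31.0 to 101). PC3 exceeded DU145 by 1.37-fold (1.24 to 1.52). Of its 5151 exonic bases, 1371 (26.6%) are shared with exons of TGFB2-OT1 on the same strand. TGFB2-OT1 had 0 counts in each line, and how shared bases were counted is not given in the sources used here.

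The makeup of the isoforms can be compared per length, in the deposited FPKM. TGFB1, TGFB2 and the third isoform gene TGFB3 summed to 46.0 FPKM in PC3, 46.6 in DU145 and 0.30 in LNCAP. TGFB1 was the largest part in both castration-resistant lines, with 70.1% of the sum in PC3 and 79.2% in DU145. TGFB2 took 25.6% in PC3 and 18.5% in DU145, and TGFB3 4.31% and 2.31%. The FPKM of TGFB2 is over its whole listed length, and the effect of the bases shared with TGFB2-OT1 on these shares was not tested. In LNCAP the sum rests on 2, 13 and 8 counts, which are too few for a makeup.

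INHBA (chromosome 7, 41667168 to 41705834, minus strand) encodes the inhibin beta A chain, whose dimer is activin A, a ligand that acts through its own receptors on the same SMAD2 and SMAD3. It stood at 197 CPM in PC3, 0.128 CPM in DU145 and 0.256 CPM in LNCAP, from 3010, 2 and 4 counts. PC3 alone was high. INHBA was 770-fold higher in PC3 than in LNCAP (300 to 2827) and 1543-fold higher in PC3 than in DU145 (427 to 12745). DU145 and LNCAP could not be placed in order at this depth, since the interval of the fold by which DU145 was lower ran between 0.287 and 22.2.

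LTBP1 (chromosome 2, 32946972 to 33399509, plus strand) encodes a latent TGF-beta binding protein, which anchors the inactive ligand complex in the matrix. It stood at 460 CPM in PC3, 25.8 CPM in DU145 and 6.59 CPM in LNCAP, from 7035, 405 and 103 counts. The 3 lines formed a graded order with PC3 far above. LTBP1 was 69.9-fold higher in PC3 than in LNCAP (57.5 to 85.7) and 17.8-fold higher in PC3 than in DU145 (16.1 to 19.7). In DU145 against LNCAP it was 3.92-fold higher (3.15 to 4.92), just under the 4-fold limit, so the gene was not called there. Per length, LTBP1 exceeded TGFB1 by 1.93-fold in PC3 (62.3 against 32.2 FPKM), whereas in DU145 TGFB1 exceeded LTBP1 by 10.5-fold (36.9 against 3.52 FPKM).

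Among the receptors the type II gene separated the lines. TGFBR2 (chromosome 3, 30606502 to 30694142, plus strand) encodes the type II receptor that first binds TGF-beta. It stood at 140 CPM in PC3, 198 CPM in DU145 and 1.54 CPM in LNCAP, from 2146, 3102 and 24 counts. TGFBR2 was 91.5-fold higher in PC3 than in LNCAP (61.3 to 143) and 129-fold higher in DU145 than in LNCAP (86.5 to 202). Between the 2 castration-resistant lines it was 1.41-fold lower in PC3 (1.33 to 1.49).

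TGFBR1 (chromosome 9, 99104038 to 99154192, plus strand) encodes the type I receptor, the kinase that acts on SMAD2 and SMAD3. It stood at 32.8 CPM in PC3, 57.7 CPM in DU145 and 23.4 CPM in LNCAP, from 501, 904 and 366 counts. All 3 lines had the type I RNA at levels within 4-fold. It was 1.40-fold higher in PC3 than in LNCAP (1.22 to 1.61) and 2.46-fold higher in DU145 than in LNCAP (2.18 to 2.79).

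TGFBR3 (chromosome 1, 91680343 to 91906335, minus strand) encodes betaglycan, the co-receptor that presents ligand and is known for its loss in prostate cancer. It stood at 21.1 CPM in PC3, 9.06 CPM in DU145 and 17.0 CPM in LNCAP, from 323, 142 and 265 counts. DU145 was lowest. TGFBR3 was 1.25-fold higher in PC3 than in LNCAP (1.06 to 1.47) and 1.87-fold lower in DU145 than in LNCAP (1.52 to 2.31). PC3 exceeded DU145 by 2.33-fold (1.91 to 2.86).

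**Figure D2:**
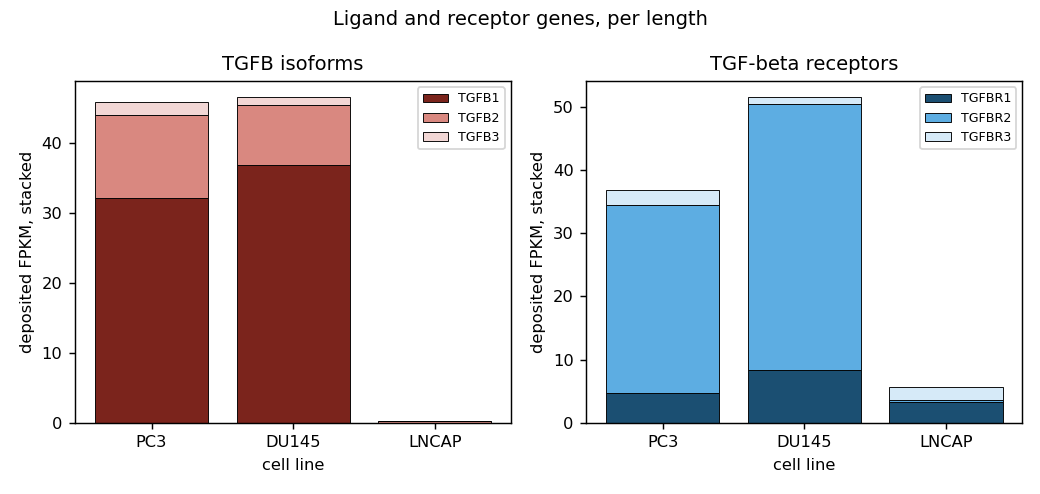
Deposited FPKM of the 3 TGF-beta isoform genes (left) and the 3 receptor genes (right), stacked for PC3, DU145 and LNCAP, 1 library each. TGFB1 and TGFBR2 make up most of the height in PC3 and DU145, and in LNCAP the ligand sum is 0.30 FPKM and the receptor sum 5.59 FPKM.

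Per length, the 3 receptor genes summed to 36.8 FPKM in PC3, 51.5 in DU145 and 5.59 in LNCAP. TGFBR2 was 80.5% of the sum in PC3 and 81.6% in DU145, against 5.73% in LNCAP, where TGFBR1 was 60.1% and TGFBR3 34.2%. The ratio of type II to type I FPKM was 6.23 in PC3 (5.65 to 6.88), 4.99 in DU145 (4.63 to 5.38) and 0.0954 in LNCAP (0.0603 to 0.144). The balance of the 2 receptor RNAs was therefore on opposite sides of 1 in the castration-resistant lines and LNCAP. Percentiles among protein-coding genes by FPKM gave the same picture for TGFBR2, at 92.8 in PC3, 95.4 in DU145 and 38.9 in LNCAP.

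**Figure D3:**
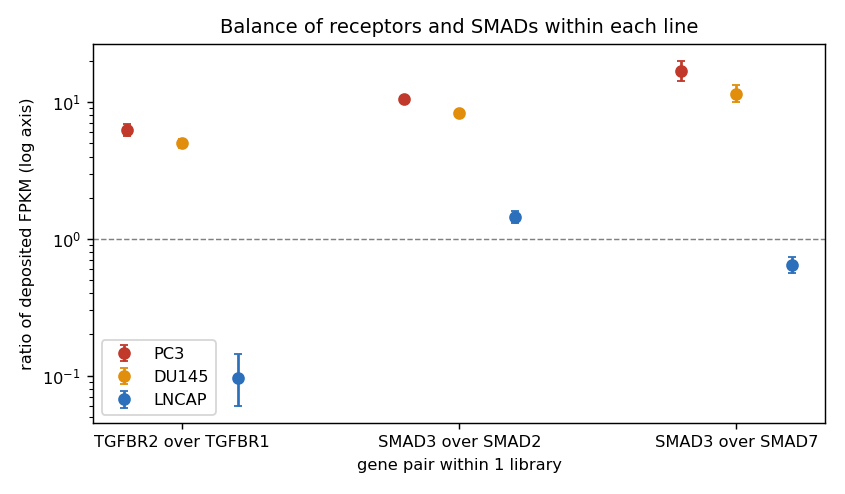
Ratios of deposited FPKM between 2 genes of the same library on a log axis, for TGFBR2 over TGFBR1, SMAD3 over SMAD2 and SMAD3 over SMAD7. Bars are exact 95% counting intervals and the dashed line marks a ratio of 1. PC3 and DU145 are above 1 for each pair, and LNCAP is below 1 for TGFBR2 over TGFBR1 and for SMAD3 over SMAD7. The size of each ratio depends on the listed gene lengths, which the bars do not cover.

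The transducer genes lay on opposite sides of LNCAP, SMAD3 above it and SMAD7 below it in both other lines. SMAD3 (chromosome 15, 67063763 to 67195195, plus strand) encodes a receptor-activated SMAD that binds DNA. It stood at 308 CPM in PC3, 258 CPM in DU145 and 30.6 CPM in LNCAP, from 4701, 4040 and 479 counts. SMAD3 was 10.0-fold higher in PC3 than in LNCAP (9.13 to 11.1) and 8.41-fold higher in DU145 than in LNCAP (7.65 to 9.27). PC3 and DU145 were 1.19-fold apart (1.14 to 1.24), with PC3 higher.

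SMAD7 (chromosome 18, 48919853 to 48952052, minus strand) encodes the inhibitory SMAD that blocks the type I receptor and is itself a known target of the pathway. It stood at 10.1 CPM in PC3, 12.3 CPM in DU145 and 26.1 CPM in LNCAP, from 154, 193 and 408 counts. LNCAP, the line with the least TGFB1, TGFB2 and TGFBR2 RNA, had the most SMAD7 RNA. SMAD7 was 2.59-fold lower in PC3 than in LNCAP (2.15 to 3.14) and 2.12-fold lower in DU145 than in LNCAP (1.78 to 2.53), under the 4-fold limit in each. PC3 and DU145 did not differ beyond counting error (0.984 to 1.52, as the fold by which PC3 was lower).

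Within each library, SMAD3 FPKM was 16.9 times that of SMAD7 in PC3 (14.4 to 19.9) and 11.6 times in DU145 (10.0 to 13.4), against 0.648 times in LNCAP (0.567 to 0.742). SMAD3 also exceeded SMAD2, the other receptor-activated SMAD of this pathway, by 10.5 times in PC3, 8.36 times in DU145 and 1.45 times in LNCAP. These ratios depend on the listed lengths, 9113 bases for SMAD3, 36366 for SMAD2 and 5033 for SMAD7. In LNCAP even which gene of a pair is higher depends on them, since its counts were 479 for SMAD3, 1322 for SMAD2 and 408 for SMAD7. By counts SMAD3 and SMAD2 had 4701 and 1781 in PC3, and 4040 and 1928 in DU145, so the lengths make up much of the 10.5 and 8.36. SMAD2 itself stood at 117 CPM in PC3, 123 CPM in DU145 and 84.6 CPM in LNCAP. The shared partner SMAD4 stood at 54.7, 43.3 and 46.0 CPM in PC3, DU145 and LNCAP, so SMAD3 was the only 1 of these 3 genes called.

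TGFBI (chromosome 5, 136028895 to 136063818, plus strand) encodes a secreted matrix protein named for its induction by TGF-beta. It stood at 0.0654 CPM in PC3, 142 CPM in DU145 and 0.512 CPM in LNCAP, from 1, 2222 and 8 counts. DU145 alone was high. PC3 had TGFB1 and TGFBR2 RNA at levels close to those of DU145, and a link of either to TGFBI was not tested. TGFBI was 277-fold higher in DU145 than in LNCAP (140 to 643) and 2168-fold lower in PC3 than in DU145 (389 to 85652). In PC3 against LNCAP it was 7.82-fold lower from 1 PC3 count, with an interval of 1.05 to 347. That call was lost with 5 counts added, where the log2 ratio was -1.08, and on FPKM with 0.1 added, where it was -0.60.

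**Figure D4:**
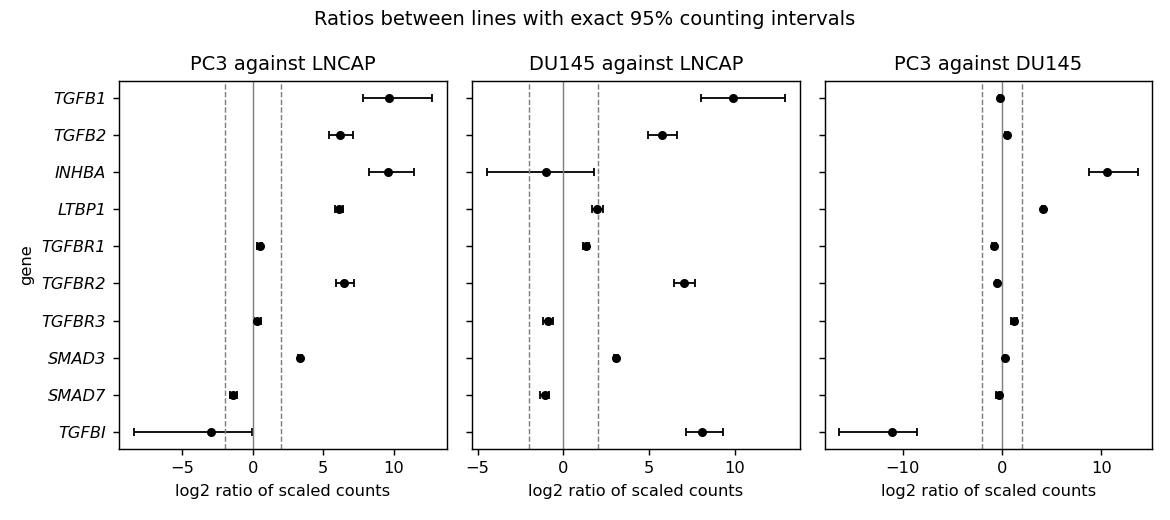
Log2 ratios of TMM-scaled counts for the 10 genes in 3 pairs of lines, with exact 95% counting intervals as bars. Solid lines mark 0 and dashed lines the 4-fold limit. TGFB1, TGFB2, TGFBR2 and SMAD3 lie beyond the upper limit in both comparisons with LNCAP and within the limits between PC3 and DU145.

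All 10 genes reached 1 CPM in at least 1 library. In PC3 against LNCAP 6 of the 10 were called higher and 1 lower, where 13% of the 18025 genes tested were called higher and 13.3% lower. In DU145 against LNCAP 5 of the 10 were called higher and none lower, where 13.7% of all genes were called higher and 12.1% lower. In PC3 against DU145 the calls were 2 higher and 1 lower, INHBA, LTBP1 and TGFBI, where 8.54% of all genes were higher and 10.6% lower. The median log2 ratio of the 10 genes was 4.72 in PC3 against LNCAP, 2.52 in DU145 against LNCAP and 0.03 in PC3 against DU145, beside -0.01, 0.00 and 0.02 over all genes tested. Both comparisons with LNCAP share its library, and the 4 genes called higher in both were 40% of the 10, where 7.56% of all genes tested were. The 10 genes were chosen with earlier results of these data known, so these shares describe them and are no test of the set.

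The class comparison of PC3 and DU145 with LNCAP treats the 2 castration-resistant lines as replicates of a class and assumes that LNCAP varies as they do. With 1 residual degree of freedom, edgeR's quasi-likelihood test called 0 of 18025 genes at an adjusted p of 0.05 (percent called 0), with 969 genes higher and 777 lower at an unadjusted p under 0.05. Among the 10 genes, 4 were past that unadjusted limit, and all were higher in both lines. Their class log2 fold changes were 9.69 for TGFB1 (edgeR adjusted p = 0.266), 6.78 for TGFBR2 (adjusted p = 0.266), 5.97 for TGFB2 (adjusted p = 0.289) and 3.21 for SMAD3 (adjusted p = 0.341). limma-voom also called 0 genes, with 477 higher and 857 lower at an unadjusted p under 0.05. DESeq2 called 912 genes higher (5.06%) and 394 lower (2.19%), and 7 of the 10 among the higher ones. These 7 included INHBA and TGFBI, each at 1 or 2 counts in one library of the class. Without PC3 the class log2 fold change of INHBA was -0.96, and without DU145 that of TGFBI was -2.82, against 8.54 and 7.09 with both lines. Over the alternatives the adjusted p of TGFB1 ranged between 1.04e-12 with DESeq2 and 0.765 in edgeR with no filter.

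The protein-coding neighbours of genes that were near 0 in a line included both detected and undetected genes. Beside TGFB1 on chromosome 19, LNCAP had 59 counts of B9D2 and 135 of EXOSC5 on one side, and 1 count of AXL, a receptor kinase gene, and 19 of CYP2S1 on the other. AXL had 7281 counts in PC3 and 14494 in DU145, so TGFB1 and AXL were both near 0 in LNCAP, while B9D2, EXOSC5 and the overlapping HNRNPUL1 were detected there. Beside TGFBR2 on chromosome 3, LNCAP had 2927 counts of STT3B and 2 of RBMS3, an RNA-binding protein gene with 138 counts in PC3 and 120 in DU145. Beside TGFBI on chromosome 5, PC3 had 1560 counts of SMAD5, whereas LECT2 and IL9 were at 5 counts or fewer in every line. Beside INHBA on chromosome 7, DU145 had 43 counts of SUGCT and 48 of GLI3, a Hedgehog transcription factor gene with 2606 counts in PC3.

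The 10 genes were also set in a wider list of 103 genes of the TGF-beta superfamily, grouped by role, which holds them. Of these, 94 reached 1 CPM in a library. In PC3 against LNCAP 29 of the 94 were called higher and 14 lower, with a median log2 ratio of 0.60, where 13% and 13.3% of all genes were called and their median was -0.01. In DU145 against LNCAP 23 were higher and 12 lower, with a median of 0.14, where 13.7% and 12.1% of all genes were called. In PC3 against DU145 22 were higher and 10 lower, with a median of 0.41, where 8.54% and 10.6% of all genes were called. The lower calls were near these shares in each pair. These counts include the 10 genes, and both they and the list were chosen with earlier results of these data known. Without the 10 genes, 84 tested genes were left. Of these 23 were higher and 13 lower in PC3 against LNCAP, with a median of 0.53. In DU145 against LNCAP 18 were higher and 12 lower, with a median of 0.04. In PC3 against DU145 it was 20 higher and 9 lower, with a median of 0.42.

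**Figure D5:**
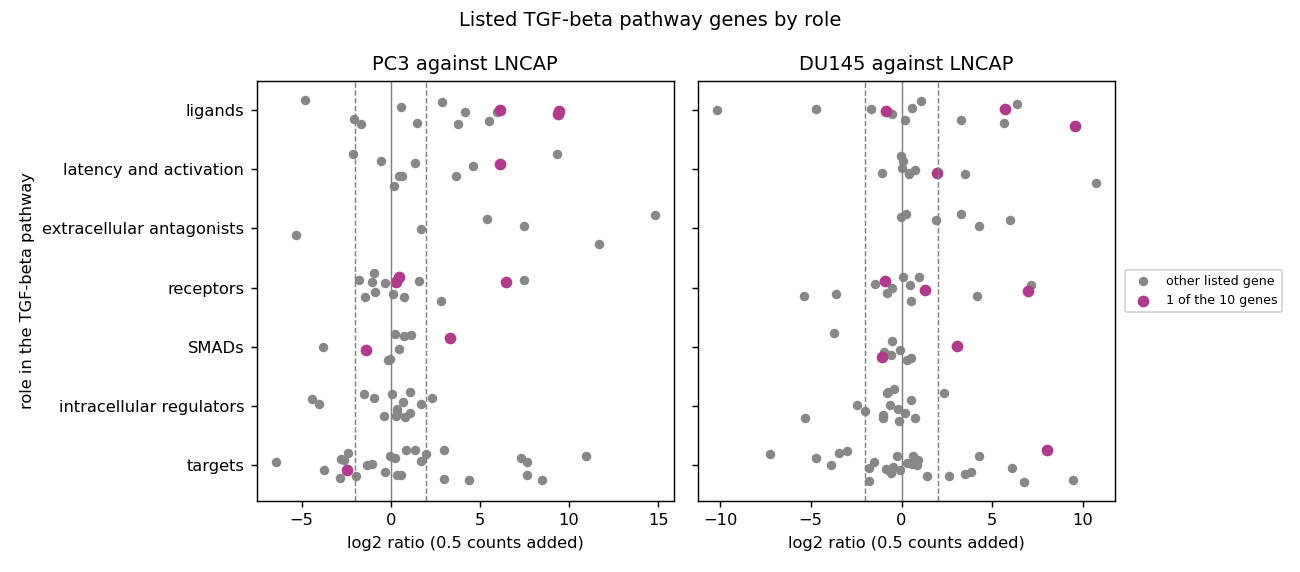
Log2 ratios with 0.5 counts added for the 94 tested genes of the wider list by role, in PC3 against LNCAP (left) and DU145 against LNCAP (right). Each point is a gene, coloured points are the 10 genes, and dashed lines mark the 4-fold limit. In PC3 against LNCAP 10 of 13 ligand genes lie beyond the limits, and 2 of 9 SMADs and 3 of 15 intracellular regulators do, where 26.3% of all tested genes were called.

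The 13 tested ligand genes include TGFB1, TGFB2 and INHBA. Of the 13, 8 were called higher and 2 lower in PC3 against LNCAP, and 5 higher and 2 lower in DU145 against LNCAP. Of all genes 13% and 13.7% were called higher in these pairs. The 2 lower calls are near the shares of all genes, 13.3% and 12.1%. INHBB, which encodes the inhibin beta B chain, stood at 189 CPM in PC3, 0.128 CPM in DU145 and 4.16 CPM in LNCAP. It shared with INHBA the high level in PC3, and was 1482-fold higher there than in DU145 (410 to 12246). The inhibin alpha gene INHA stood at 1.96, 1.60 and 0 CPM in PC3, DU145 and LNCAP.

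Of 6 tested genes of extracellular antagonists 4 were called higher and 1 lower in PC3 against LNCAP, where 13% of all genes were higher and 13.3% lower. FST, which encodes follistatin, the binding protein that neutralises activins, stood at 916 CPM in PC3, 0.574 CPM in DU145 and 0 CPM in LNCAP. It was thus at its highest in the line with the most INHBA, at least 4776-fold higher than in LNCAP, and its FPKM in PC3 was 13.0 times that of INHBA (12.5 to 13.5). That ratio depends on the listed lengths, 2969 bases for FST and 8302 for INHBA, which the interval does not cover. By counts FST and INHBA had 14009 and 3010 in PC3. FST was called higher in DU145 against LNCAP as well, from 9 counts against 0, a bound of only 2.99-fold. FSTL3, which encodes a related activin-binding protein, was highest in DU145, at 28.6 CPM in PC3, 85.6 CPM in DU145 and 8.76 CPM in LNCAP.

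Genes of latency and activation were called higher for 4 of 10 and lower for 1 in PC3 against LNCAP, and higher for 2 in DU145 against LNCAP. All genes were called higher for 13% and 13.7% in these pairs, so the calls in DU145 are near that share. MMP14, which encodes a membrane metalloproteinase that can release latent TGF-beta, stood at 60.5 CPM in PC3, 159 CPM in DU145 and 0.064 CPM in LNCAP. LTBP2 went against LTBP1 between the castration-resistant lines, at 16.6 CPM in PC3, 73.5 CPM in DU145 and 6.52 CPM in LNCAP, 4.42-fold lower in PC3 than in DU145 (3.86 to 5.09). LTBP3 was level, at 170, 167 and 125 CPM. ITGB8, which encodes a chain of the integrin that activates latent TGF-beta, stood at 51.9 CPM in PC3, 4.02 CPM in DU145 and 4.09 CPM in LNCAP. Its partner chain gene ITGAV was 4.33-fold lower in PC3 than in LNCAP (4.04 to 4.63).

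Of 14 tested receptor genes, TGFBR2 among them, 3 were called in PC3 against LNCAP (21.4%) and 5 in DU145 against LNCAP (35.7%), where 26.3% and 25.8% of all genes were called. CD109, which encodes a TGF-beta co-receptor known to dampen signalling, stood at 185 CPM in PC3, 146 CPM in DU145 and 1.02 CPM in LNCAP. Its pattern over the 3 lines was the nearest in the wider list to that of TGFBR2, with a root mean square difference of 0.388 in centred log2 CPM. The other pairs nearest in pattern were SMAD7 with ACTA2 (0.015), TGFBR3 with PPM1A (0.042), TGFBR1 with ID1 (0.213) and SMAD3 with TGFB3 (0.262). These are descriptions over 3 libraries, and ACTA2 rests on 7, 10 and 29 counts in PC3, DU145 and LNCAP.

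Of 15 intracellular regulators 3 were called in PC3 against LNCAP (20.0%) and 4 in DU145 against LNCAP (26.7%), near the shares of all genes. PMEPA1 and BAMBI, both known as inhibitors that the pathway induces, were lower in both castration-resistant lines, as was SMAD7 within the 4-fold limit. PMEPA1, also known as an androgen-induced gene, stood at 28.3 CPM in PC3, 84.2 CPM in DU145 and 466 CPM in LNCAP. BAMBI, a pseudoreceptor gene, stood at 4.25 CPM in PC3, 2.30 CPM in DU145 and 92.3 CPM in LNCAP. SMURF2, which encodes a ubiquitin ligase that SMAD7 brings to the receptor, was 4.90-fold higher in PC3 (4.41 to 5.46) and 5.03-fold higher in DU145 (4.52 to 5.60) than in LNCAP.

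Known target genes went both ways. In PC3 against LNCAP 8 of 27 tested targets were called higher and 7 lower, and in DU145 against LNCAP 8 were higher and 4 lower. The shares of all genes were 13% higher and 13.3% lower for PC3, and 13.7% and 12.1% for DU145, and the 4 lower calls are near theirs. CTGF, a matricellular protein gene, stood at 198 CPM in PC3, 36.7 CPM in DU145 and 0.512 CPM in LNCAP. TNC, the tenascin gene, was 207-fold higher in PC3 (140 to 320) and 111-fold higher in DU145 (75.1 to 172) than in LNCAP. PTHLH, which encodes a bone-acting hormone, stood at 24.8 CPM in PC3, 3.0 CPM in DU145 and 0.128 CPM in LNCAP. IL11 stood at 1.18 CPM in PC3, 21.2 CPM in DU145 and 1.47 CPM in LNCAP, and among the listed genes its pattern was the nearest to that of TGFBI, though with a root mean square difference of 1.89. Targets lower in both lines included CDKN1A, a cell cycle inhibitor gene, 87.9-fold lower in PC3 (70.2 to 111), and FN1, the fibronectin gene, 150-fold lower in DU145 (138 to 164), each against LNCAP.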

How the data were processed

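RNA was sequenced from PC3, DU145 and LNCAP cells, 1 library each. The authors deposited raw read counts per gene, and also FPKM values, which in these files equal the count over the listed gene length and 1 constant per library (within 0.1% for 100% of the genes with 10 or more counts). The tools, whose roles are not stated, were TopHat2 2.0.9 and Bowtie2 2.0.6, with Cuffdiff 2.1.1 and Cufflinks 2.1.1, per the submitters' processing notes. Not given in the sources used here were the counter, strand mode and build. The 58735 gene identifiers and coordinates matched GENCODE release 29, so coordinates are on GRCh38.

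Counts were scaled with TMM factors of 0.998 in PC3, 0.987 in DU145 and 1.016 in LNCAP (edgeR 4.0.16, R 4.3.3). The 18025 genes that reached 1 CPM in any library were tested. Ratios carry exact conditional binomial intervals (scipy 1.17.1). Where a count was 0, the fold is a bound with 3 counts in its place, written "at least". PCR copies were not marked by molecular identifiers, so intervals and bounds cover counting error only. The class comparison used edgeR's quasi-likelihood test with Benjamini-Hochberg adjustment over all tested genes, with DESeq2 1.42.0 and limma 3.58.1 as alternatives; its p-values measure the spread between 2 different lines. The fits were tested on simulated data. For the class fit these had less spread between libraries than the data here, so they cannot show its accuracy here.

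The 10 genes and the wider list were chosen with earlier results of these data known. From each role of the wider list the text names up to 3 called genes per direction and pair with the largest near bound of the interval, and genes nearest in pattern. The neighbouring genes, ratios within a library and other listed genes named were chosen after their values were seen. 1 listed gene is not reported here.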

Additional observations from a re-analysis of the deposited data

Results flagged for a closer look

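In 3 of the 10 genes, TGFBI, INHBA and TGFBR3, the 2 castration-resistant lines lay on opposite sides of LNCAP. So did 29 of the 94 tested genes of the wider list, these 3 included, and 15 of the 29 had intervals that exclude no difference in both comparisons. Only TGFBI and INHBB were called in both. Of all 18025 genes tested, 81 (0.449%) were called higher in PC3 and lower in DU145, and 65 (0.361%) the reverse. The share of all genes on opposite sides without regard to calls is not given, so the counts of 3, 29 and 15 have no such share beside them. Both comparisons share the LNCAP library, and they differ by the ratio of PC3 to DU145, in which LNCAP cancels. By that ratio TGFBI was 2168-fold lower in PC3 (389 to 85652). INHBA was 1543-fold higher there (427 to 12745), INHBB 1482-fold (410 to 12246) and TGFBR3 2.33-fold (1.91 to 2.86). These intervals cover counting error only, and with 1 library per line no difference between lines was tested. TGFBI had a log2 ratio of -2.47 in PC3 against LNCAP and of 8.03 in DU145 against LNCAP, and the first rests on 1 PC3 count and 8 LNCAP counts. INHBA had log2 ratios of 9.42 in PC3 and -0.85 in DU145, each against LNCAP, and the second rests on 2 and 4 counts with an interval that includes no difference. INHBB, a ligand gene of the wider list, had log2 ratios of 5.50 in PC3 and -4.71 in DU145, and both were past the 4-fold limit. TGFBR3 had log2 ratios of 0.32 in PC3 and -0.90 in DU145, both within the 4-fold limit and with intervals that exclude no difference.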

How the results depend on the processing

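Ratios were recomputed with DESeq2 size factors, library totals alone, TMM without mitochondrial genes, no filter, a 5 CPM filter, 5 counts added, and FPKM with 0.1 or 1 added. The number of the 10 genes past 4-fold was 6 or 7 in PC3 against LNCAP, 5 in DU145 against LNCAP and 3 in PC3 against DU145 under every one of these, and the only call lost was that of TGFBI in PC3 against LNCAP (log2 ratio -1.08 with 5 counts added, -0.60 and -0.08 on FPKM with 0.1 and 1 added). Over all genes the number past 4-fold in PC3 against LNCAP, DU145 against LNCAP and PC3 against DU145 was 4746, 4651 and 3448. It was 2942, 2822 and 2047 with the 5 CPM filter, which tests fewer genes, and 1654, 1552 and 997 on FPKM with 1 added, which shrinks ratios of low genes. With 1 added to FPKM the wider list had 22 genes past 4-fold in DU145 against LNCAP, instead of 35, and 19 in PC3 against DU145, instead of 32. In the class comparison edgeR called 0 genes and DESeq2 1306, with 0 and 7 of the 10 genes among them; the cause was not tested. Leaving out 1 line of the class left no residual degrees of freedom, so it gave values with no test and no count. The class log2 fold change of INHBA then ranged between -0.96 (without PC3) and 9.54, that of TGFBI between -2.82 (without DU145) and 8.09, and that of TGFBR3 between -0.90 and 0.32 (without DU145), against 8.54, 7.09 and -0.17 with both lines. No paired analysis was possible because each line has 1 library.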

Other observations

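Listed genes of other branches of the superfamily included some that were called and some that were within 4-fold in every pair. GDF15, a stress-induced gene of a distant ligand, stood at 371 CPM in PC3, 0.957 CPM in DU145 and 1157 CPM in LNCAP, and was 1208-fold lower in DU145 than in LNCAP (732 to 2159). BMP4 stood at 4.78 CPM in PC3, 28.7 CPM in DU145 and 0.320 CPM in LNCAP. NOG, which encodes the BMP antagonist noggin, stood at 105 CPM in PC3, 1.98 CPM in DU145 and 0 CPM in LNCAP, at least 545-fold higher in PC3 than in LNCAP. BMPR1B, a type I BMP receptor gene, stood at 20.5 CPM in PC3, 1.53 CPM in DU145 and 18.8 CPM in LNCAP, whereas BMPR1A was within 4-fold, at 44.4, 76.2 and 55.9 CPM.

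SMAD9 was lower in both castration-resistant lines, at 5.04 CPM in PC3, 5.30 CPM in DU145 and 69.5 CPM in LNCAP, while SMAD1 and SMAD5 were within 4-fold in every pair. SMAD6, the inhibitory SMAD of the BMP arm and the neighbour of SMAD3 on chromosome 15, stood at 105 CPM in PC3, 24.4 CPM in DU145 and 47.1 CPM in LNCAP. It was 4.30-fold higher in PC3 than in DU145 (3.84 to 4.82), whereas SMAD3 was 1.19-fold higher there. Of the ID genes, which are BMP targets, ID1 stood at 144, 178 and 94.9 CPM, ID2 at 61.8, 13.9 and 47.7 CPM and ID3 at 17.2, 59.7 and 89.2 CPM in PC3, DU145 and LNCAP.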
